A study of Mus musculus with 13 samples.

Results

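Tissue-restricted antigen (TRA) genes were followed in CD45- thymic stroma before and after sublethal total body irradiation (TBI). The 10 genes were C-reactive protein (Crp) and apolipoprotein A-I (Apoa1) of liver, Fabp2, Reg4 and Fcgbp of gut, the insulin gene Ins2 of pancreas, beta-casein (Csn2) of mammary gland, Spt1 of salivary gland, Cnga2 of olfactory neurons and thyroglobulin (Tg) of thyroid. They were chosen by name with measured values of these libraries already known, so their levels and changes are given as a description and carry no test of their own. All 10 were found among the 53379 genes of the count table, 9 under the same symbol and Spt1 under its current symbol Mucl2. Bulk RNA-seq had been made from the thymus of wild-type C57BL/6 mice at 2 months of age, the table holding 4 steady-state libraries and 3 for each day examined after TBI (1, 4 and 7). The steady-state mice are labelled untreated, while their columns name phosphate-buffered saline (PBS) controls, which the study's design text equates with steady state. The study's methods speak of the bulk libraries as biological replicates, a term used elsewhere in the study for individual mice, while the labels name no animal, and the errors measure the spread between libraries.

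Medullary thymic epithelial cells (mTECs) transcribe genes that are otherwise confined to peripheral organs, and developing T cells that react to the encoded proteins are deleted or diverted into the regulatory lineage. Many of these genes depend on the nuclear protein Aire, others on the transcription factor Fezf2, and each is transcribed in a small share of mTECs at a time. mTECs in turn depend on contact with developing thymocytes, which irradiation kills. In bulk samples such as these, fewer cells of a type and less RNA per cell cannot be told apart.

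The CD45- fraction held epithelial, endothelial and fibroblast transcripts in every library. The 12 mTEC markers summed to 657 to 2303 CPM (reads of a gene scaled to a normalized library of fixed size) at steady state, 1306 to 1983 at day 1, 2176 to 2698 at day 4 and 463 to 771 at day 7. This list is not specific to mTECs, as it holds Epcam and H2-Aa, which the study used to define all thymic epithelial cells. In PBS day 1 replicate 2, H2-Aa and Krt5 made up 950 and 524 of the 2303 CPM. No mTEC marker was at 0 in a whole group. Markers of thymocytes, which carry CD45, were present too: the 10 markers summed to 209 to 719 CPM at steady state, 99.5 to 126 at day 1, 22.1 to 34.0 at day 4 and 180 to 4405 at day 7. The steady-state libraries fell into a high and a low pair for each of the 10 genes. The high pair was PBS day 1 replicate 2 and PBS day 7 replicate 1. Its columns and those of 3 other libraries carry neither of the tags k3 and kk. These tags mark 5 and 3 columns, and their meaning is not given in the sources used here. The pairs also differed in cell markers. The mTEC markers summed to 2303 and 1276 CPM in the high pair and 723 and 657 in the low pair. The 6 fibroblast markers summed to 11990 and 18310 CPM in the high pair and 82490 and 41390 in the low pair. The part of cell content in the split of the 10 genes was not tested. Below, steady-state values are listed in the order PBS day 1 replicate 2, PBS day 4 replicate 2, PBS day 7 replicate 1 and PBS day 7 replicate 2, and the others in replicate order.

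RefSeq promoter windows of GRCm38.p6 (250 bases before to 50 after the start) were found for 8 of the 10 genes, those of Ins2 and Tg not being in the table. Of the 8, Crp, Csn2, Fcgbp and Spt1 held a TATA sequence (TATAAA or TATATA on the gene's strand) between 40 and 15 bases before the start, a match present in 2.73% of all 32851 windows. The stretches of 60 bases directly before the start are shown for 3 of these genes, with the TATA letters in capitals. They are also shown for Reg4 and Cnga2, in which neither TATAAA nor TATATA was found at that place. The Reg4 stretch holds tataag there, which differs from TATAAA in its last base and was not counted. Csn2 is not shown because its stretch lies inside the gene model of the count table. They are read 5′ to 3′ on the gene's strand, from chr1:172697996-172698055 (+) for Crp, chr7:28071176-28071235 (+) for Fcgbp, chr15:103899313-103899372 (-) for Spt1, chr3:98222096-98222155 (+) for Reg4 and chrX:71991789-71991848 (+) for Cnga2.
Crp: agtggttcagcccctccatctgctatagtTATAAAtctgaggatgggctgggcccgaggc
Fcgbp: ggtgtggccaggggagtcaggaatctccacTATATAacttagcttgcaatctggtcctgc
Spt1: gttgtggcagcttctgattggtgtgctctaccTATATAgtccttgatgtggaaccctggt
Reg4: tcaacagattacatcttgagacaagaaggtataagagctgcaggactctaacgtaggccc
Cnga2: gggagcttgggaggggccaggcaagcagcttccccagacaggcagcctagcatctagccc
The TATA sequence began 31 bases before the start in Crp, 30 in Fcgbp and 28 in Spt1. The 8 windows held 1 to 7 CpG dinucleotides (median 3), against a median of 7 (quartiles 3 and 20) over all windows, and their median GC content was 44.5% against 52.7%. None of the 8 held GGGCGG on either strand, which 35.66% of all windows hold. The motifs were picked after the windows had been read, so these shares describe the sequences and were not tested.

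At steady state the genes spanned more than 2 orders of magnitude per kb of exonic length. Fcgbp stood highest at 58.1 CPM per kb (range 18.4 to 105.7). Its lowest library was above the highest library of Csn2, the next gene at 5.76. Values per kb rest on the gene models of the count table. For Csn2 the model holds 6926 exonic bases in 2 merged exons, nearly the whole gene. A shorter transcript would raise its value per kb, so its gap from Fcgbp depends on the model. Below Fcgbp every gene overlapped its neighbour in the order Csn2, Apoa1 (4.29), Crp (1.70), Fabp2 (0.693), Reg4 (0.653), Spt1 (0.563), Cnga2 (0.476), Ins2 (0.394) and Tg (0.136). Fcgbp alone made up 84.1% to 95.6% of the genes' summed CPM in each library. In the plot of CPM by library the day 1 points overlap steady state for all of the genes except Crp, and the day 7 points lie below it for all except Tg.

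**Figure D1:**
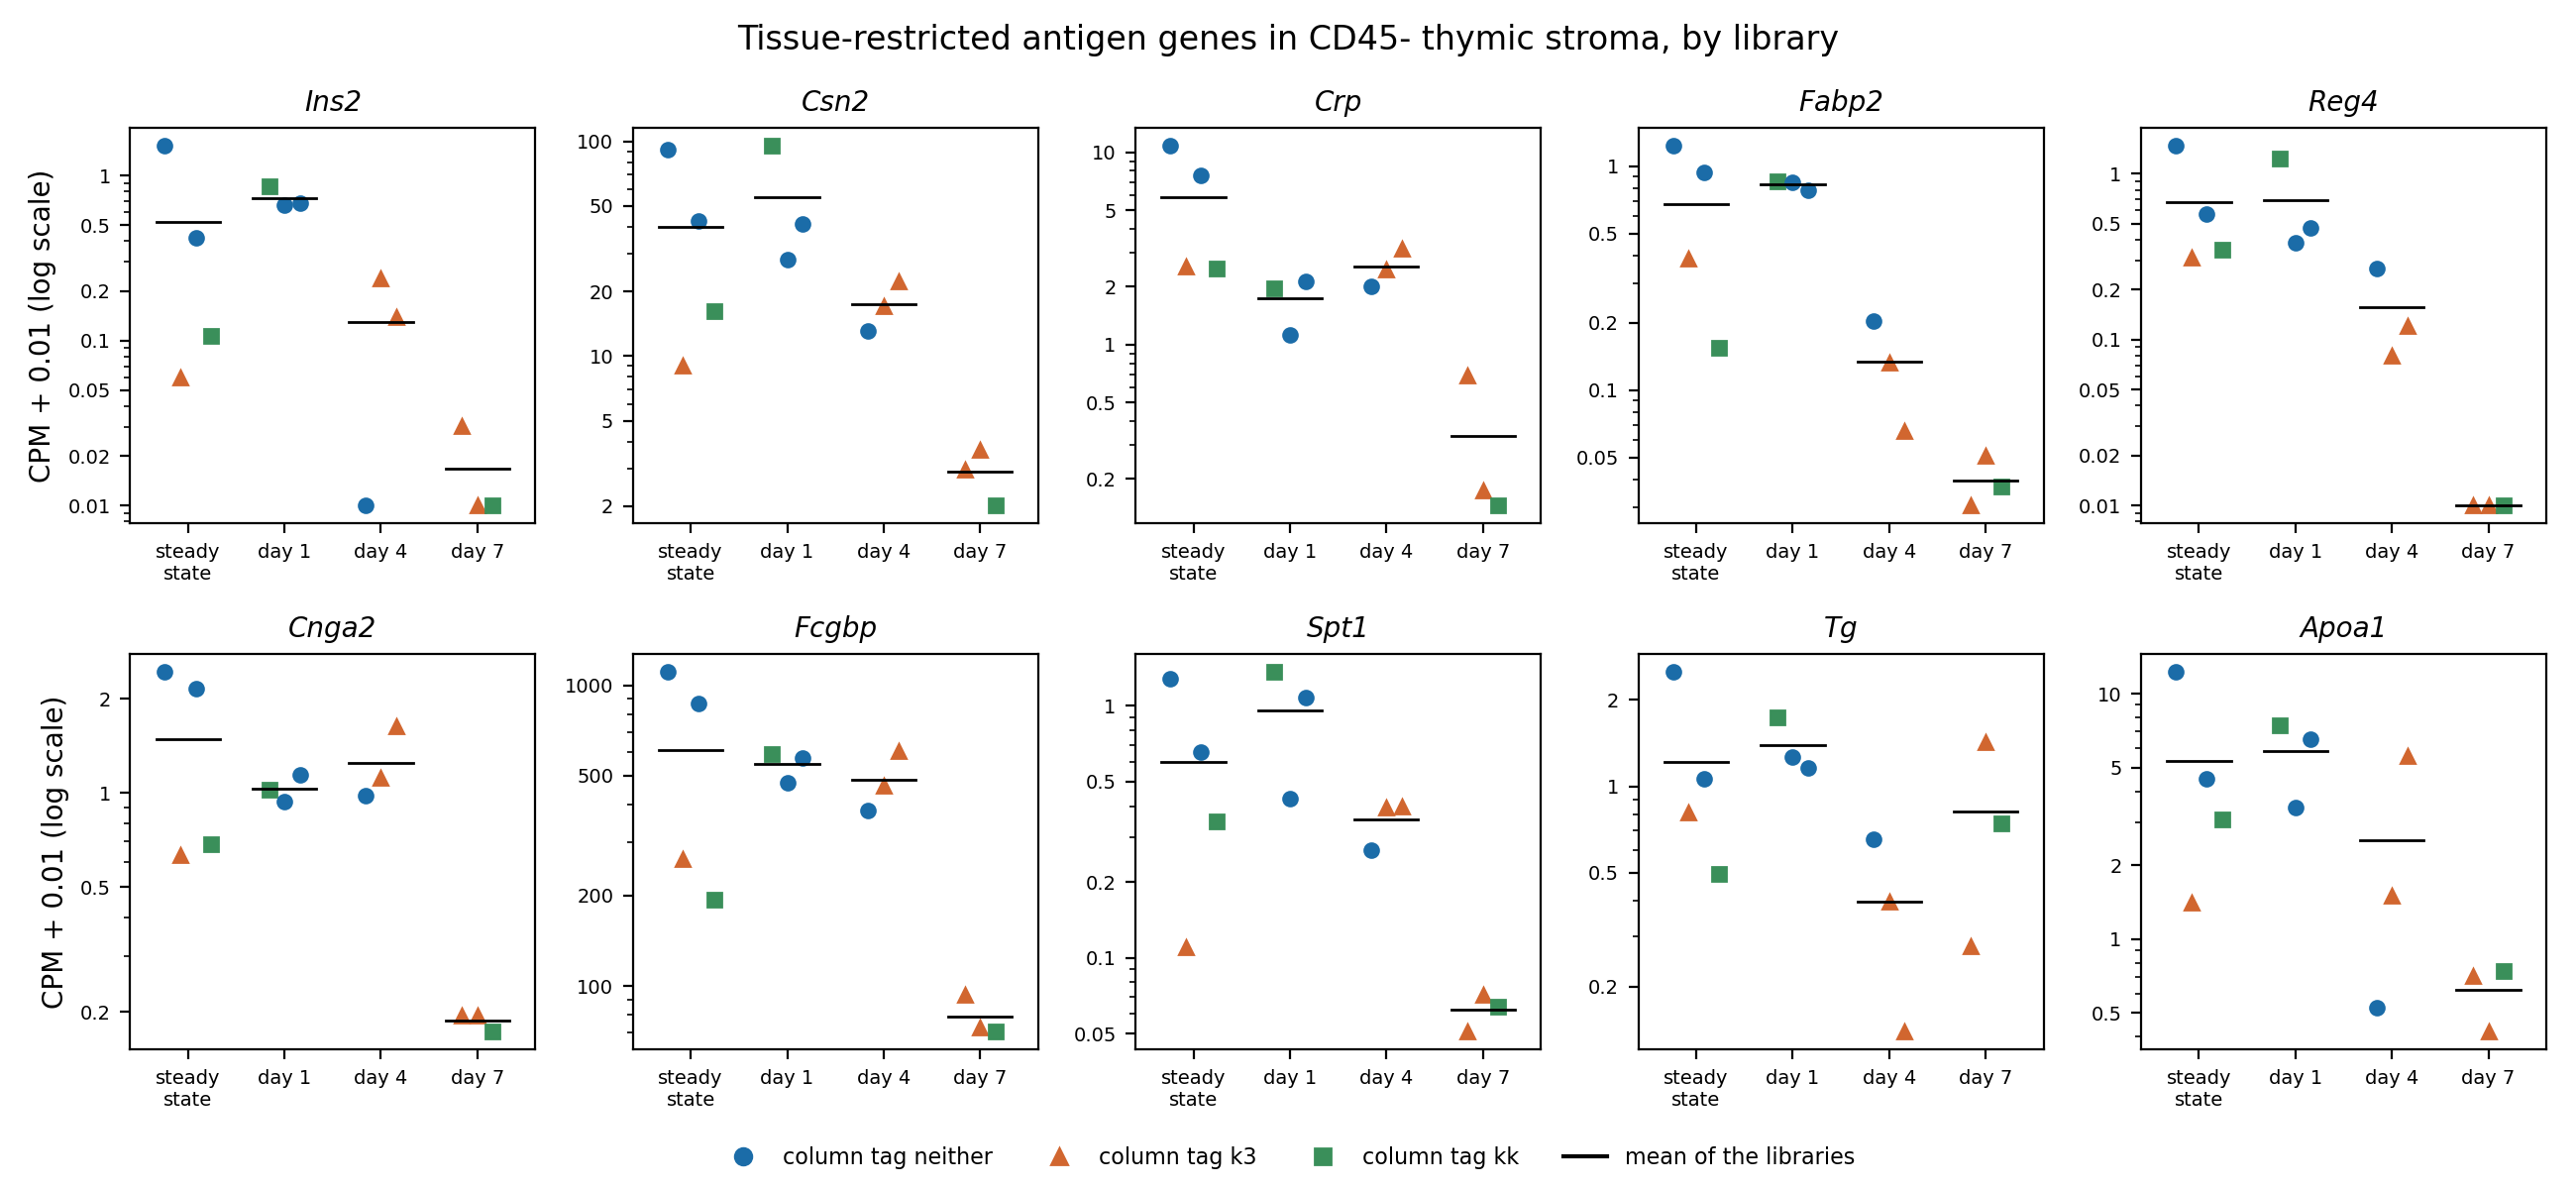
CPM of the 10 genes in each of the 13 libraries (log axis, 0.01 CPM added so that 0 can be drawn), grouped by condition along the x axis, with symbols for the tag in the column name and a bar at the mean. At day 7 the 3 libraries lie below all 4 steady-state libraries for 9 of the genes, the exception being Tg, and within steady state the libraries tagged k3 or kk lie below the others.

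Crp (chr1:172698055-172833031, + strand, GRCm38) encodes an acute-phase protein made by hepatocytes. Its counts were 494, 101, 352 and 51 at steady state, 69, 24 and 101 at day 1, 31, 139 and 169 at day 4, with 33, 8 and 5 for day 7. In CPM this was 5.85 ± 4.09 at steady state (SD, n = 4), 1.73 ± 0.537 at day 1 (SD, n = 3), 2.52 ± 0.569 at day 4 and 0.325 ± 0.305 by day 7. Crp was the only one of the genes whose day 1 libraries all lay below all steady-state libraries, and its day 7 libraries lay below those of day 4 as well. Its log2 fold change from steady state was -1.75 ± 0.63 (standard error) at day 1, -1.21 ± 0.62 at day 4 and -4.14 ± 0.72 at day 7.

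Apoa1 (chr9:46228580-46230466, + strand) encodes the main protein of high-density lipoprotein, made by liver and small intestine. Apoa1 counts were 560, 56, 208 and 63 at steady state, 263, 74 and 312 at day 1, 8, 85 and 301 at day 4, with 34, 20 and 27 for day 7. CPM values came to 5.3 ± 4.82 at steady state (SD, n = 4), 5.8 ± 2.1 at day 1 (SD, n = 3), 2.53 ± 2.68 at day 4 and 0.613 ± 0.177 by day 7. The day 4 libraries differed more than 10-fold among themselves, the lowest of them being within the range of day 7, while every day 7 library lay below every steady-state and day 1 library. The log2 fold change at day 7 was -3.11 ± 0.84 against steady state and -3.24 ± 0.87 against day 1.

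Fabp2 (chr3:122895072-122899506, + strand) encodes the fatty acid binding protein of enterocytes. Counts of Fabp2 were 56, 15, 43 and 3 at steady state, 30, 18 and 37 at day 1, 3, 7 and 3 at day 4, with 1, 2 and 1 for day 7. Its CPM was 0.668 ± 0.496 at steady state (SD, n = 4), 0.82 ± 0.0393 at day 1 (SD, n = 3), 0.124 ± 0.069 at day 4 and 0.0295 ± 0.0104 by day 7. The 3 day 1 libraries lay close together, and those of day 4 and day 7 lay below them without overlap. With 3 or fewer counts taken as the floor of detection, Fabp2 was above it in 3 of 4 steady-state libraries, in all 3 at day 1, in 1 of 3 at day 4 and in none at day 7. All 965 of its exonic bases lie inside 4933405D12Rik on the opposite strand, outside the exons of that gene.

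Reg4 (chr3:98222156-98236748, + strand) encodes a secreted lectin of intestinal endocrine and goblet cells. For Reg4 the counts were 67, 12, 26 and 7 at steady state, 43, 8 and 22 at day 1, 4, 4 and 6 at day 4, with 0, 0 and 0 for day 7. Day 4 lay below steady state and day 1 in every library, and at day 7 no read was counted in any of the 3 libraries. With 3 counts over the group as the limit that 0 counts allow, the day 7 level was at least 32.9-fold lower than at steady state, at least 31.3-fold lower than at day 1 and at least 4.96-fold lower than at day 4. These limits cover counting error only. The mean CPM at steady state, 0.667 ± 0.547 (SD, n = 4), was close to the 0.683 ± 0.464 (n = 3) of day 1.

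Fcgbp (chr7:28071236-28120862, + strand) encodes a large mucus protein of goblet cells that binds the Fc part of IgG. Its counts were high in every library, with 50596, 10580, 40519 and 3995 at steady state, 20959, 10188 and 27255 at day 1, 5945, 26334 and 32715 at day 4, with 4562, 3536 and 2598 for day 7. In CPM the level was 609.8 ± 451 at steady state (SD, n = 4), 546 ± 63.7 at day 1 (SD, n = 3), 484 ± 112 at day 4 and 78.8 ± 12.8 by day 7. The libraries of days 1 and 4 sat between the high and the low steady-state pair, and those of day 7 lay below every other library. The log2 fold change was -0.16 ± 0.48 at day 1, -0.33 ± 0.49 at day 4 and -2.95 ± 0.54 at day 7.

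Ins2 (chr7:142678656-142743381, - strand) encodes insulin. Ins2 was near the floor in many libraries, with counts of 69, 2, 19 and 2 at steady state, 30, 14 and 32 at day 1, 0, 13 and 7 at day 4, with 1, 0 and 0 for day 7. Only PBS day 1 replicate 2 and PBS day 7 replicate 1 of steady state exceeded 3 counts, whereas all 3 libraries did at day 1, 2 of 3 at day 4 and none at day 7. Its mean was 0.517 ± 0.683 CPM at steady state (SD, n = 4) and 0.723 ± 0.109 at day 1 (n = 3). The single read at day 7, set against 92 at steady state, gave a level 81.0-fold lower with a 95% exact counting interval of 14.2 to 3233. Against the 76 reads of day 1 the level was 97.7-fold lower (17.0 to 3907). These intervals pool the reads of a group and cover counting error only. Of the 92 reads, 69 came from PBS day 1 replicate 2.

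Csn2 (chr5:87692624-87699630, - strand) encodes beta-casein, a milk protein. Counts in order were 4192, 362, 1974 and 334 at steady state, 3381, 603 and 1970 at day 1, 202, 975 and 1201 at day 4, with 144, 179 and 74 for day 7. CPM values were 39.9 ± 37.5 at steady state (SD, n = 4), 55 ± 35.8 at day 1 (SD, n = 3), 17.5 ± 4.61 at day 4 and 2.88 ± 0.833 by day 7. Csn2 spread about 10-fold within steady state, and PBS day 1 replicate 2 (91.9 CPM) was close to the highest day 1 library (95.6). The day 4 libraries lay below those of day 1 and the day 7 libraries below those of day 4, in each case without overlap. The log2 fold change was 0.46 ± 0.63 at day 1, -1.19 ± 0.66 at day 4 and -3.79 ± 0.75 at day 7, all against steady state.

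Spt1 (listed as Mucl2, chr15:103895855-103899312, - strand) encodes a small secreted protein of salivary gland. Spt1 was counted 58, 4, 30 and 7 at steady state, 48, 9 and 51 at day 1, 4, 22 and 21 at day 4, with 2, 3 and 2 for day 7. On the CPM scale it was 0.589 ± 0.507 at steady state (SD, n = 4), 0.948 ± 0.481 at day 1 (SD, n = 3), 0.344 ± 0.0747 at day 4 and 0.0522 ± 0.0104 by day 7. It was above the floor in every library up to day 4 and in none at day 7, and the order day 1, day 4, day 7 held for every library. Against steady state the log2 fold change was 0.68 ± 0.64 at day 1 and -3.44 ± 0.81 at day 7.

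Cnga2 (chrX:71991849-72010218, + strand) encodes a subunit of the cyclic nucleotide-gated channel that carries the odour response. Raw counts were 111, 25, 100 and 14 at steady state, 36, 20 and 54 at day 1, 15, 63 and 88 at day 4, with 9, 9 and 6 for day 7. Its CPM came to 1.47 ± 0.955 at steady state (SD, n = 4), 1.03 ± 0.101 at day 1 (SD, n = 3), 1.24 ± 0.349 at day 4 and 0.177 ± 0.0126 by day 7. Days 1 and 4 lay between the steady-state pairs, as for Fcgbp, and the 3 day 7 libraries lay within 0.163 to 0.185 CPM, below all others. The log2 fold change was -0.25 ± 0.48 at day 4 and -3.04 ± 0.56 at day 7.

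Tg (chr15:66670753-66850721, + strand) encodes thyroglobulin, the precursor of thyroid hormone, and departed from the other genes at day 7. Its counts were 114, 32, 49 and 10 at steady state, 61, 27 and 55 at day 1, 10, 22 and 7 at day 4, with 13, 69 and 27 for day 7. In CPM it was 1.21 ± 0.891 at steady state (SD, n = 4), 1.38 ± 0.306 at day 1 (SD, n = 3), 0.387 ± 0.258 at day 4 and 0.804 ± 0.577 by day 7. Tg was lower at day 4 than at day 1 in every library, and at day 7 it overlapped every other condition, with a log2 fold change of -0.60 ± 0.66 from steady state and 1.15 ± 0.74 from day 4. Of its 8883 exonic bases, 408 lie inside Sla, an adaptor gene of T cells on the opposite strand, and 112 (1.261%) are shared with exons of Gm17140 on that strand. Sla counts at day 7 were 649, 17734 and 4855, in the same order as the 13, 69 and 27 of Tg, and at day 4 they were 18, 48 and 93 beside 10, 22 and 7. The study's methods give featureCounts with default parameters, which do not use the strand of a read. A read of the opposite strand that falls in an exon of Tg can thus be counted for Tg. The 408 bases lie outside the exons of Sla, and the part of Sla in the counts of Tg was not tested.

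**Figure D2:**
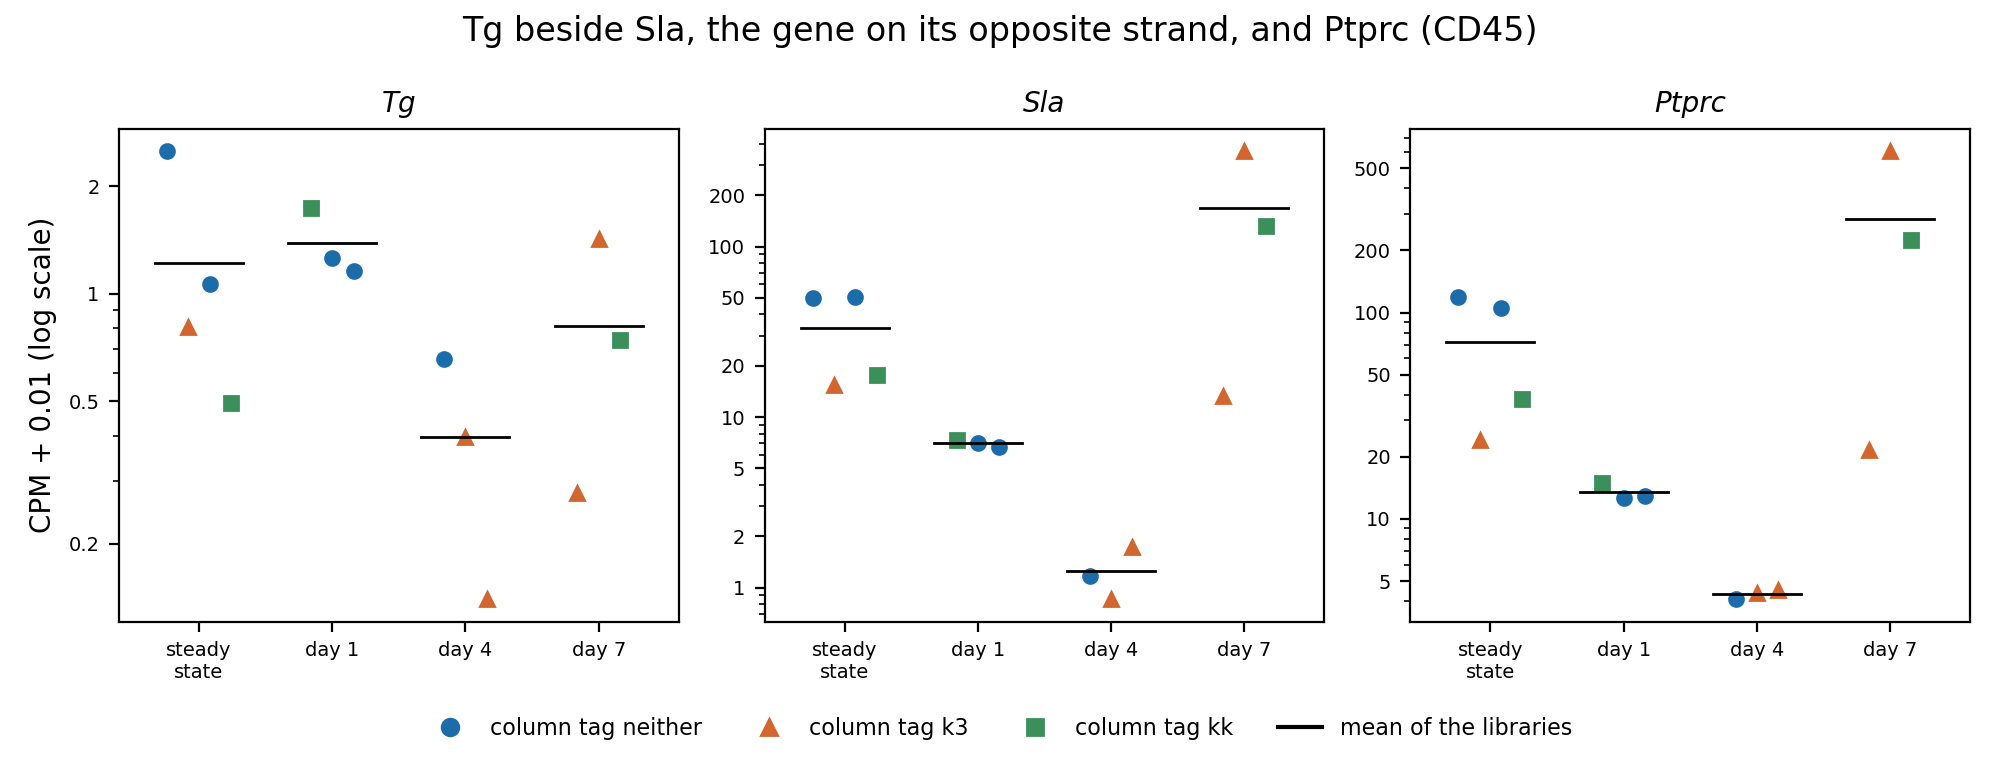
CPM of Tg, of Sla on its opposite strand and of Ptprc, the gene for CD45, in each library (log axis, 0.01 CPM added), grouped by condition, with symbols for the column tag and a bar at the mean. At day 7 the library with the highest Tg, replicate 2 at 1.41 CPM, also has the highest Sla, 363 CPM, and the library with the lowest Tg has the lowest Sla.

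By the number of genes above 3 counts, detection held up to day 4 and then dropped. At steady state 10, 9, 10 and 8 of the 10 genes were above 3 counts, at day 1 all 10 in each library, and at day 4 there were 8, 10 and 9. At day 7 the number was 6 in each library, Ins2, Fabp2, Reg4 and Spt1 being at 3 or fewer counts in all 3. Total counts at day 7 (37054467 to 51609165) were not below those of the other conditions (15721866 to 52056896 over all libraries). After thinning every library to the smallest total, 4 of the 10 were above 3 counts in each day 7 library, against 6 to 10 at steady state, 9 or 10 at day 1 and 7 or 8 at day 4.

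All 10 genes passed the filter on low counts and entered the fit of all 19984 genes with edgeR. At day 1 none was called lower or higher than at steady state at an adjusted p of 0.05, beside 0.671% of all genes called lower. The median log2 fold change of the 10 was 0.15, against -0.10 over all genes tested, 7 being higher and 3 lower. The libraries of Crp alone were all below steady state, beside 8.56% of all genes.

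At day 4 all 10 fitted values were below steady state, with a median of -1.20 against -0.13 over all genes. None was called, beside 0.240% of all genes called lower, and only Reg4 had no overlap with steady state, beside 8.22% of all genes. Against day 1 the median was -1.54, and Reg4, Fabp2, Csn2, Ins2, Tg and Spt1 lay wholly below, 6 of 10 beside 13.7% of all genes. None of these was called, beside 1.07% of all genes called lower. The lowest fitted value against day 1 was that of Fabp2 (log2 -2.84 ± 0.72), while Fcgbp (-0.17 ± 0.52) and Cnga2 (0.27 ± 0.52) were near 0.

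At day 7 all 10 genes were below steady state in the fit, with a median log2 fold change of -3.62 (also with Reg4 at its bound) against 0.00 over all genes. The libraries of 9 genes lay wholly below steady state, beside 4.67% of all genes, but edgeR called none of the 10, beside 0.00% of all genes called lower. Over all genes 1 was called in either direction, although 2691 had an unadjusted p under 0.05. With DESeq2, 9 of the 10 were called lower, all except Tg, beside 3.50% of all genes, and the same 9 were called by edgeR with no filter on low counts, beside 0.966%. Leaving out PBS day 4 replicate 2 gave 8 calls and leaving out day 7 replicate 1 gave 6, so the count depends on either library. The number over all genes moved too, with 0 to 622 called in either direction when each library was left out.

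Against day 1 edgeR called 8 of the 10 lower at day 7, all except Crp and Tg, beside 4.45% of all genes. The libraries of 9 lay wholly below day 1, beside 14.8% of all genes, and the median log2 fold change was -3.68. Against day 4, Crp, Fcgbp and Cnga2 were called lower, 3 of 10 beside 1.13% of all genes, and 7 lay wholly below, beside 14.0%. With the column tag as covariate 3 of the 10 were called against day 1, and with the replicate block 5 against day 1 and 0 against day 4. Over all genes, in either direction, the column tag gave 1416 against day 1, beside 1625 in the main fit. The replicate block gave 655 against day 1 and 95 against day 4, where the main fit gave 779. Without day 1 replicate 1 or day 7 replicate 2 the count of the 10 against day 1 was 4, and without day 1 replicate 3 or day 7 replicate 3 it was 5. Against day 4 it was 0 without day 4 replicate 2, day 4 replicate 3, day 7 replicate 2 or day 7 replicate 3, and 6 without PBS day 1 replicate 2. Over all genes, leaving out each library gave 472 to 2043 calls against day 1 and 15 to 1507 against day 4. The 3 comparisons that involve day 7 share its libraries and are not independent. Every day 7 library carries the tag k3 or kk, while the high steady-state pair, day 1 replicates 2 and 3 and day 4 replicate 1 carry neither. Day and tag are thus partly confounded in these comparisons.

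**Figure D3:**
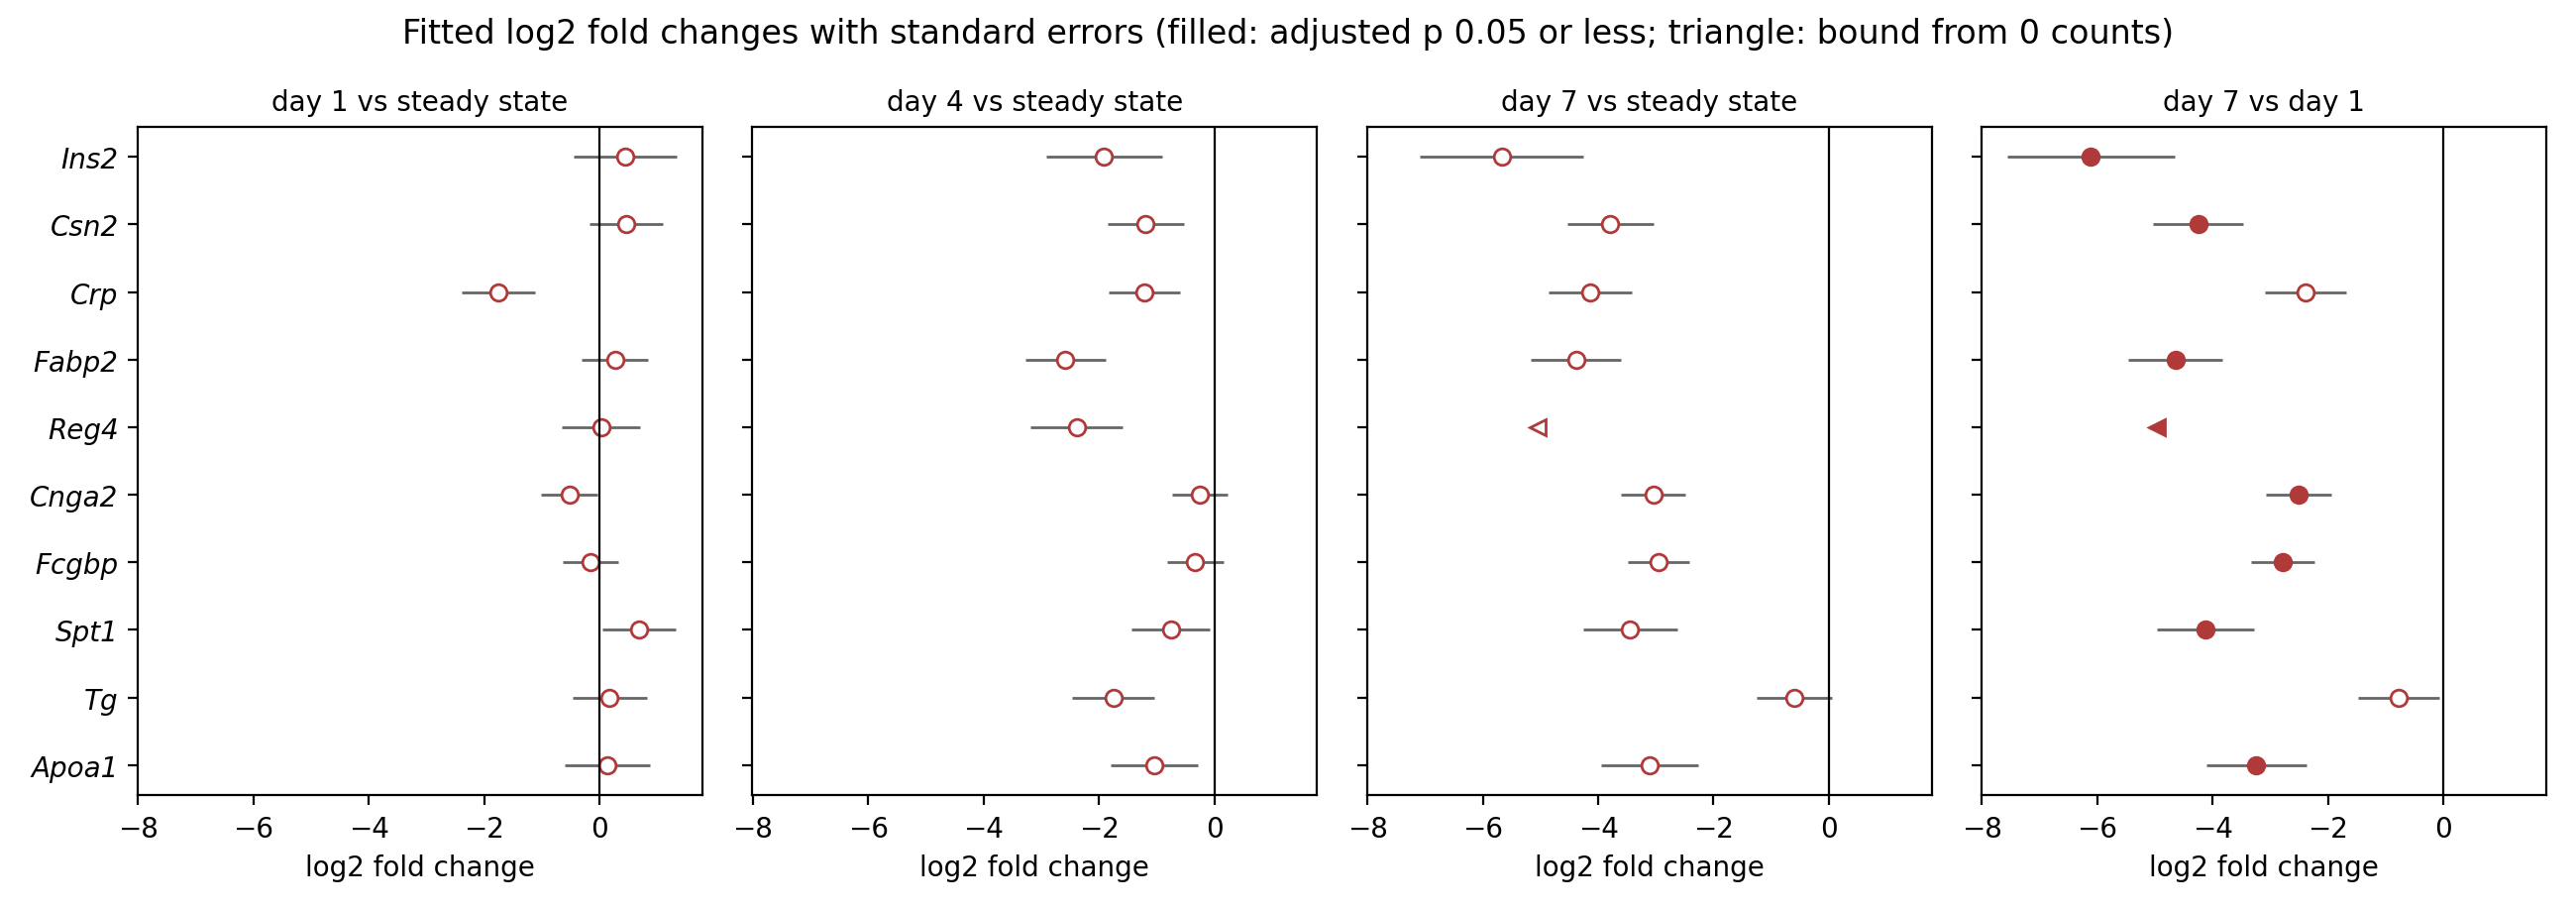
Fitted log2 fold changes of the 10 genes (points) with standard errors (bars) for days 1, 4 and 7 against steady state and day 7 against day 1, filled where the adjusted p was 0.05 or less. Triangles mark the bounds of -5.04 and -4.97 for Reg4, which had 0 counts at day 7, and the 8 filled points are all in the comparison of day 7 with day 1.

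The high and the low steady-state pair differ in column tag, and in cell markers as given above. Each day was therefore also set against the steady-state libraries of the same tag, on log2(CPM + 0.5). Ins2, Fabp2, Reg4 and Spt1 had few reads in the tagged steady-state libraries (2 in each for Ins2), and the 0.5 CPM added limits how far a low gene can fall, so their differences do not measure the change. Of the better counted genes at day 7, Fcgbp differed by -1.68 in the k3 libraries and -1.45 in the kk library, Crp by -1.78 and -2.22, Csn2 by -1.33 and -2.73, Apoa1 by -0.86 and -1.53, and Cnga2 by -0.72 and -0.83. Tg differed by -0.10 and 0.32. At day 4 Fcgbp, Crp, Csn2, Apoa1 and Cnga2 were lower in the library with neither tag (-0.93 to -2.97). In the k3 libraries they were higher (0.11 to 1.07), while Tg was lower in both (-0.915 and -0.799). At day 1 these genes and Tg were lower in the libraries with neither tag (-0.34 to -2.22). In the kk library all were higher (0.37 to 2.53) except Crp (-0.28). The direction at days 1 and 4 thus differed between tags, except for Tg at day 4 and Crp at day 1. Each value rests on 1 or 2 libraries a side, and the share of all genes lower within a tag was not computed.

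In the edgeR fit of all libraries Aire passed the test in none of the comparisons, although its mean was lower at each later day. Reads of Aire numbered 2691, 121, 753 and 140 at steady state, 230, 150 and 509 at day 1, 60, 174 and 261 at day 4, with 67, 143 and 31 for day 7. CPM was 21.3 ± 25.8 at steady state (SD, n = 4), 8.04 ± 2.28 at day 1 (SD, n = 3), 3.92 ± 0.889 at day 4 and 1.72 ± 1.08 by day 7. The log2 fold change was -3.63 ± 0.87 at day 7 against steady state (edgeR adjusted p = 0.117) and -2.22 ± 0.85 against day 1 (adjusted p = 0.127), neither past the threshold although the day 7 libraries lay wholly below both. DESeq2 gave adjusted p-values of 0.000358 and 0.0326 for these. Some other edgeR fits passed the threshold. Against steady state these were no filter (edgeR adjusted p = 0.013) and without PBS day 4 replicate 2 (0.0454). Against day 1 they were only the conditions compared (0.0494) and without PBS day 1 replicate 2 (0.0280). With the column tag as covariate Aire did not pass at day 7, with -2.70 from steady state (edgeR adjusted p = 0.461) and -1.64 from day 1 (0.304). At day 1 Aire was -1.40 ± 0.78 (edgeR adjusted p = 0.383) and at day 4 -2.44 ± 0.82 (adjusted p = 0.257; DESeq2 0.0446) from steady state. Without PBS day 1 replicate 2, the library with 2691 reads, the values were -0.06 at day 1, -1.05 at day 4 and -2.35 at day 7.

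Fezf2 had counts of 4165, 404, 1624 and 204 at steady state, 513, 546 and 1880 at day 1, 338, 701 and 747 at day 4, with 377, 317 and 170 for day 7. Its CPM was 36.6 ± 38.4 at steady state (SD, n = 4), 26.4 ± 12.5 at day 1 (SD, n = 3), 16 ± 5.11 at day 4 and 6.28 ± 1.57 by day 7. At day 7 its libraries lay below all others, with a log2 fold change of -2.54 ± 0.71 from steady state (edgeR adjusted p = 0.134) and -2.07 ± 0.72 from day 1 (adjusted p = 0.0982). DESeq2 gave adjusted p-values of 0.00631 and 0.0210, and edgeR with no filter 0.0241 and 0.0329. Other edgeR fits also passed against day 1, leaving aside the k3 or kk libraries only, given below. These were only the conditions compared (edgeR adjusted p = 0.0392) and without PBS day 1 replicate 2 (0.0244). With the column tag as covariate Fezf2 did not pass at day 7, with -1.34 from steady state (edgeR adjusted p = 0.480) and -1.06 from day 1 (0.232). At day 1 the value was -0.47 ± 0.65 (edgeR adjusted p = 0.759), which became 0.57 without PBS day 1 replicate 2, and without that library the day 7 value was -1.55. With the k3 and kk libraries only, a setting chosen after the data were seen that leaves 1 library at day 1 and 2 at steady state, the day 1 values were 0.46 for Aire and 0.58 for Fezf2. In this setting the day 7 values were -1.53 for Aire and -0.68 for Fezf2 from steady state. From day 1 they were -1.997 for Aire and -1.265 for Fezf2, and from day 4 -1.315 and -1.155. The 9 TRA regulators listed were Aire, Fezf2 and partners of Aire such as Chd4 and Sirt1. The edgeR fit of all libraries called none of them in any comparison. An unadjusted p under 0.05 was reached by 0 to 3 of the 9, beside 2602 to 4784 of all 19984 genes. The median of the 9 at day 7 was -0.20 from steady state.

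Ratios of counts within a library do not depend on its total, and were taken on the log2 scale with 0.5 added to each count. Relative to Aire, the genes were a median of 1.05 higher at day 1 than at steady state, with Ins2, Csn2, Spt1 and Apoa1 above steady state in every library. At day 4 the median was 0.53, with Csn2, Cnga2, Fcgbp and Spt1 wholly above. At day 7 it was -0.07, and only Reg4 was wholly below. The ratios of the other 9 overlapped those of steady state, but their values were widely spread, with changes in the mean from -1.22 for Crp to 2.34 for Tg. For Ins2 and Reg4, with at most 1 read in a day 7 library, the ratio there is set by the 0.5 added.

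Relative to Fezf2 the median at day 7 was -1.08, with Ins2, Csn2, Crp, Fabp2 and Reg4 wholly below steady state. Relative to Epcam, an adhesion protein of all thymic epithelial cells, it was -1.59 with 8 of 10 wholly below, Spt1 and Tg overlapping. Relative to Krt5, a keratin of the medulla, all 10 were wholly below at day 4, where the median was -3.14. At day 7, 9 were, with a median of -2.40. Krt5 itself was at 919 to 1294 CPM at day 4 against 160 to 524 at steady state. A gene that did not change therefore also falls in this ratio at day 4. By CPM only Reg4 of the 10 lay wholly below steady state at that day. The share of all genes wholly above or below was not computed for any of the 4 references. In the plot of these ratios Tg alone was higher at day 7 than at day 4 against all 4 references.

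**Figure D4:**
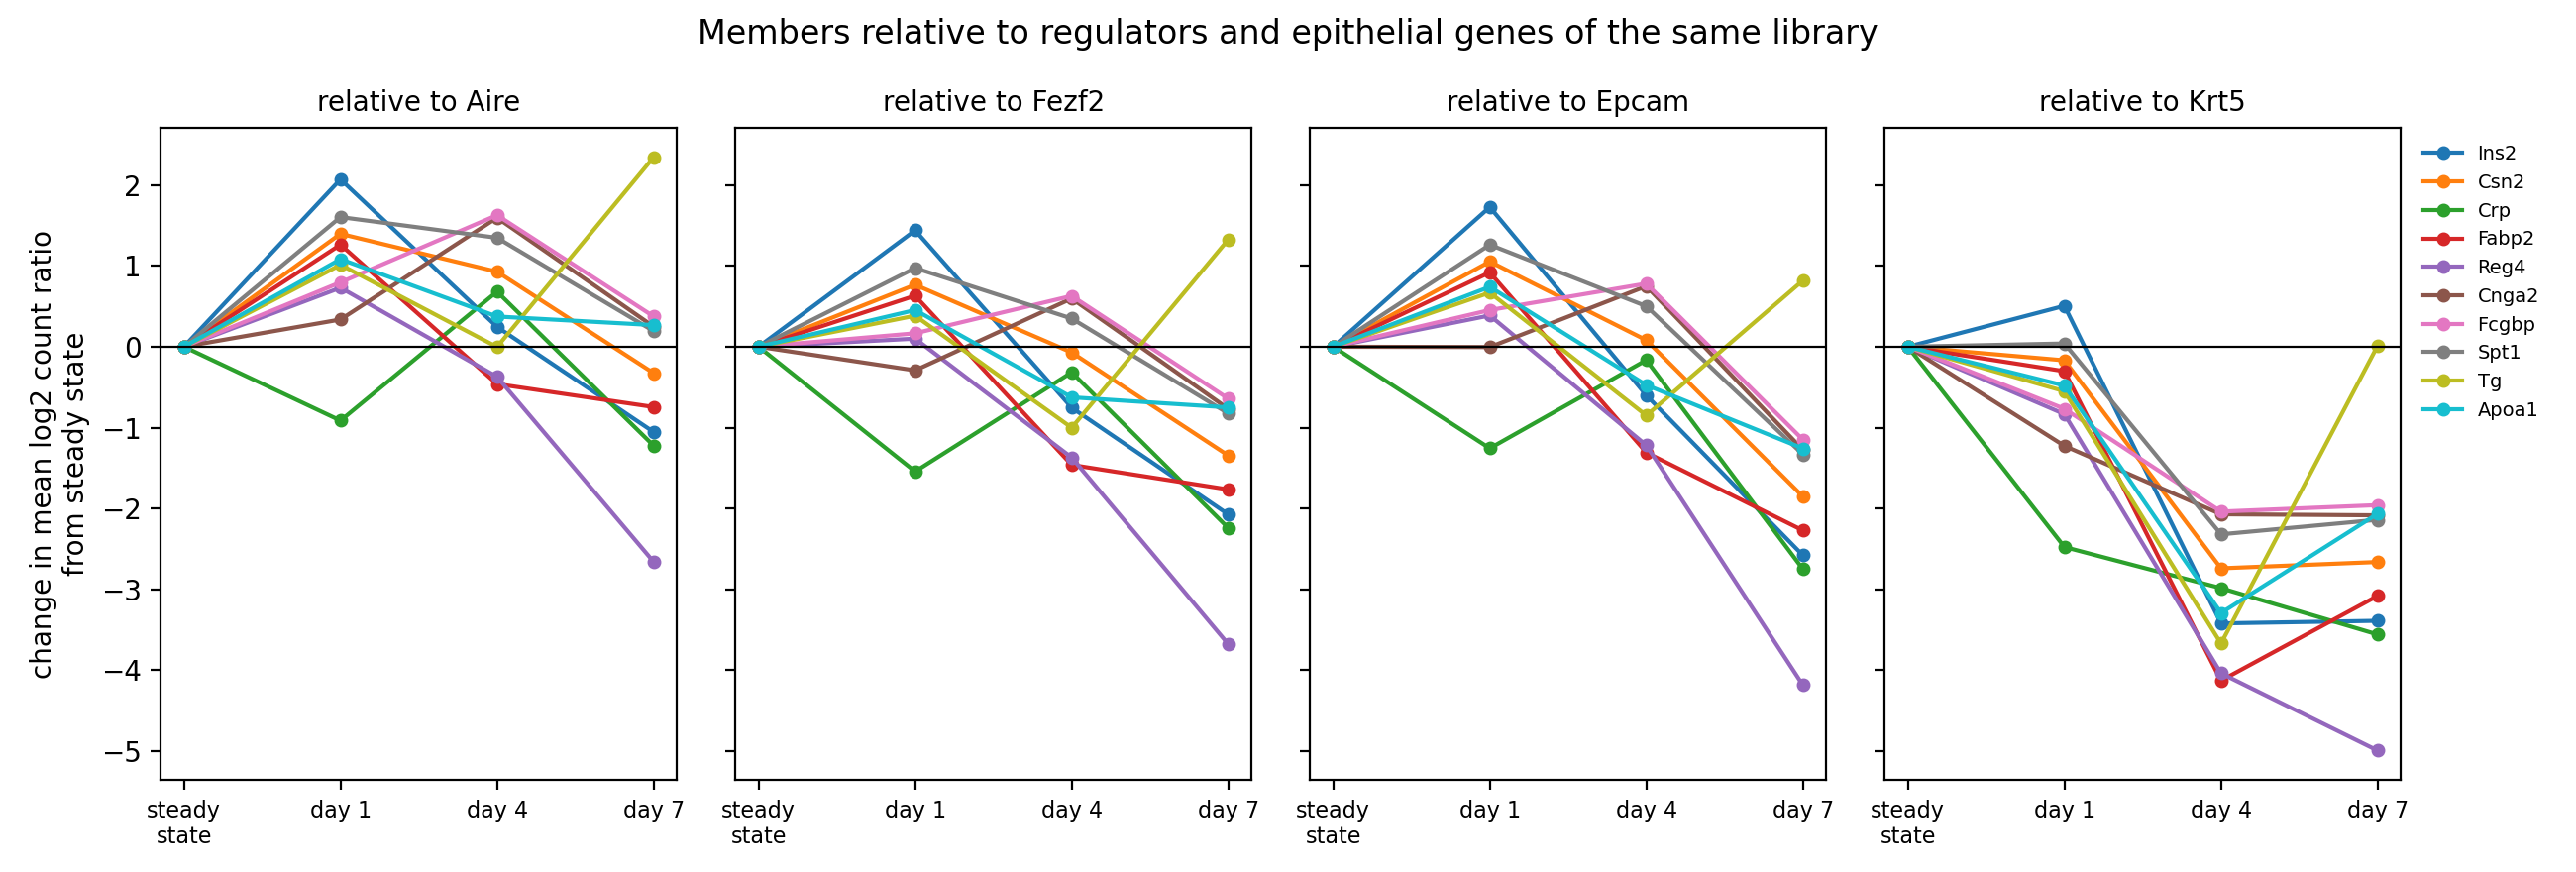
Change from steady state in the mean log2 ratio of each gene's counts to those of Aire, Fezf2, Epcam and Krt5 in the same library, by condition, with a line for each gene. At day 7 the medians are -0.07, -1.08, -1.59 and -2.40 in this order, and Tg and Reg4 form the upper and lower edge.

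Other TRA genes, listed by tissue and not overlapping the 10, gave the wider picture. There were 56 genes of liver, gut, pancreas, mammary and salivary gland, of which 45 entered the fit. Of the 45, edgeR called none at days 1, 4 or 7 against steady state. An unadjusted p under 0.05 was reached by 2, 9 and 27 of them, beside 3444, 2602 and 2691 of all 19984 genes. DESeq2 called 0, 1 and 18 of the 45 in these comparisons, the last beside 3.50% of all genes called lower. At days 1 and 4 it called 1381 and 644 of all genes in either direction. Their median log2 fold change was 0.40 at day 1, -0.84 at day 4 and -2.02 at day 7, 43 of 45 being lower at day 7. Between day 1 and day 7, 16 of 45 were called lower, beside 4.45% of all genes, and none higher. With the column tag as covariate 4 were called, and with the replicate block 8. Over all genes, in either direction, these settings gave 1416 and 655, beside 1625 in the main fit. Leaving out a library gave 4 to 22 of the 45, beside 472 to 2043 of all genes. The number of the 45 was 4 without day 1 replicate 1, 5 without day 7 replicate 3 and 6 without day 7 replicate 2. It was 9 without day 1 replicate 3 and 10 without day 7 replicate 1. Between days 1 and 4 and between days 4 and 7 edgeR called none of the 45. An unadjusted p under 0.05 was reached by 12 and 15 of them, beside 2729 and 3735 of all 19984 genes. DESeq2 called 5 of the 45 in each of these comparisons, beside 949 and 1919 of all genes in either direction.

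The 16 are named here because they passed in that comparison, a choice made after their values were seen. In the liver list they were the fibrinogen chains Fga, Fgb and Fgg and the thyroxine carrier Ttr, 4 of 15 tested. Fgg fell by 4.90 on the log2 scale (SE 1.03, edgeR adjusted p = 0.0144), and Fga and Fgb were at 0 in all day 7 libraries. In the gut list they were sucrase-isomaltase (Sis), guanylin (Guca2a), the antimicrobial lectins Reg3b and Reg3g, Apoa4, Lypd8 and the mucin Muc13, 7 of 14 tested. Reg3g fell by 2.21 (SE 0.54, edgeR adjusted p = 0.0265) and Apoa4, a neighbour of Apoa1 in the same gene cluster, by 3.03 (SE 0.82, edgeR adjusted p = 0.0399). In the pancreas list they were chymotrypsinogen (Ctrb1) and pancreatic polypeptide (Ppy), 2 of 10 tested, and Ppy fell by 6.06 (SE 1.25, edgeR adjusted p = 0.0134). In the mammary and salivary list they were the caseins Csn1s1, Csn1s2a and Csn3, 3 of 6 tested, which lie in the same cluster as Csn2. Csn1s2a fell by 6.55 (SE 1.20, edgeR adjusted p = 0.00852).

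Genes named from the following lists and markers by a comparison between days were likewise chosen after their values were seen. Of 8 olfactory genes tested, 1 was called lower from day 1 to day 7, the olfactory marker protein Omp (log2 -2.47 ± 0.68, edgeR adjusted p = 0.0424), and the list median was 0.18. Of 7 thyroid genes tested, the transcription factor Pax8 (-4.90 ± 1.13, edgeR adjusted p = 0.0204) and the anion transporter Slc26a4 (-3.49 ± 0.96, adjusted p = 0.0428) were called lower, and the median was -1.24. Of 10 lineage transcription factors of peripheral tissues, Hnf4a and Hnf4g, which drive liver and gut genes, were among those called lower, with a list median of -2.01. Hnf4a fell by 3.93 (SE 1.02, edgeR adjusted p = 0.0336). The median of all genes in this comparison was 0.05.

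Among mTEC markers 4 of 12 were called lower between day 1 and day 7 (the chemokine Ccl21a, Cldn4, Krt14 and the costimulator Cd80) and 3 between day 4 and day 7 (Ccl21a, Krt5 and H2-Aa), beside 4.45% and 1.13% of all genes, with list medians of -1.63 and -0.86. None of the 12 was called by edgeR against steady state, where 2, 2 and 4 had an unadjusted p under 0.05 at days 1, 4 and 7. Over all 19984 genes these numbers were 3444, 2602 and 2691. All 10 thymocyte markers were called higher at day 7 than at day 1 and than at day 4, beside 735 and 553 of all 19984 genes, with medians of 4.31 and 6.25. At day 4, Rag1, Cd8a and Cd4 were called lower than at steady state (log2 -6.39, -7.11 and -5.89), and Rag1 and Cd8a lower than at day 1. From day 1 to day 7 the mTEC markers thus fell and the thymocyte markers rose by list median, while the TRA genes fell. In day 7 replicate 1 the thymocyte markers summed to 180 CPM, below every steady-state library (209 to 719). The part of these shifts in the result was not tested. Of 8 cortical epithelial markers Ctsl was called higher at day 4 than at day 1, and of 6 fibroblast markers Pdgfrb was called higher at day 1 than at steady state (1.68 ± 0.28, edgeR adjusted p = 0.00547) and lower at day 7 than at day 1. edgeR called no marker of endothelium (6 listed), macrophages (7) or parathyroid (3). At most 1, 3 and 1 of them had an unadjusted p under 0.05 in a comparison, beside 2602 to 4784 of all 19984 genes.

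Across the 13 libraries the genes varied together. The median Pearson r of log2(CPM + 0.5) over the 36 pairs without Tg was 0.823 (range 0.599 to 0.970), and over the 9 pairs with Tg it was 0.496. The 13 points share conditions and column tags, so r is given as a description. With Aire r was 0.797 to 0.848 for the 9 genes other than Tg and 0.610 for Tg. With Ptprc it was -0.442 to 0.011 for the 9 and 0.484 for Tg.

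Of all genes tested, those with the pattern most like each of the 10 over the 13 libraries were named by the highest r. For Fcgbp they were Clca3a2 (r = 0.984), Fam19a2 (0.974) and Alox12e (0.972), and for Cnga2 Fcgbp itself (0.970), Dsg1a (0.966) and Clca3a2 (0.961). For Csn2 they included Ubd (0.980) and Skint4 (0.975), and for Spt1 they were Btnl1 (0.981), Btnl2 (0.979) and Cfap58 (0.968). Ins2 was most like the other islet hormone gene Ppy (0.978), then Gm14199 (0.972) and Elovl2 (0.970). Fabp2 was closest to Cplx1 (0.973), Oas1d (0.957) and Trim31 (0.956), and Reg4 to Ibsp (0.973), Pdyn (0.972) and Oas1h (0.963). Apoa1 was closest to Anks4b (0.964), Trh (0.952) and Clps (0.947), and Crp to Fcer2a (0.955), Dsg1a (0.951) and H2-M2 (0.933). Tg was closest to Cd53 (0.918), a gene of leukocytes, then to Gpr55 (0.897) and Pcgf5 (0.893).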

How the data were processed

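Per the labels, bulk RNA-seq was made of CD45- cells of the thymus, 4 libraries without TBI and 3 for each later day. The submitters' processing notes name Trimmomatic 0.38, STAR 2.7.0e, featureCounts 1.6.3 and GRCm38.p5, and the study's methods give default parameters, hence counting without strand. The deposited counts are whole numbers of reads per gene and library, without normalization, and the authors' table also gives each gene's exonic length. Conditions came from the labels. The PBS columns show no replicate number of the labels and were used as a group.

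Counts were fitted with edgeR 4.0.16 (R 4.3.3): all 13 libraries, a term for condition, TMM, filterByExpr() by condition, the quasi-likelihood F-test and Benjamini-Hochberg adjustment over 19984 genes, called at 0.05. SE is the log2 fold change divided by the root of F. CPM uses the TMM-scaled library size. The fit was tested on simulated data. Total counts ran from 15721866 to 52056896. Detection needed more than 3 counts. Intervals are exact binomial at 95%. No pair of libraries agreed within counting noise (smallest chi-square per degree of freedom 40.41). Positions are those of the deposited table, symbols came from GENCODE M21, and synonyms and promoters from RefSeq.

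The 10 genes and all lists were chosen with earlier results of these data known. Named beside the 10 are Aire and Fezf2, up to 3 genes of each list past the threshold against steady state by mean CPM, and for each of the 10 the 3 genes with the highest r. Genes called only between days were named after their values were seen, outside this rule. Some genes that meet these rules are not reported here. Alternatives were DESeq2 1.42.0, RLE, no filter, at least 10 counts in every library, only the conditions compared, the replicate block, the column tag as covariate, thinned counts and each library left out. Libraries with tag k3 or kk only, and differences within a tag, were chosen after seeing the data. Plots were drawn with matplotlib 3.10.9, and tables were made with pandas 2.3.3 under Python 3.11.15.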

Additional observations from a re-analysis of the deposited data

How the results depend on the processing

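Over all genes, the numbers called at days 1, 4 and 7 against steady state, and then at day 4 against day 1, day 7 against day 1 and day 7 against day 4, were 469, 58, 1, 285, 1625 and 779. DESeq2 called 1381, 644, 1081, 949, 2940 and 1919. No filter on low counts gave 250 for day 4 and 627 for day 7 against steady state and 1265 for day 7 against day 4. At least 10 counts in every library gave 20 and 0 for the first of these and 880 and 355 for day 7 against days 1 and 4. Fitting only the conditions compared gave 228, 146 and 0 for days 1, 4 and 7 against steady state and 394 for day 7 against day 4. The replicate block gave 209, 27, 0, 147, 655 and 95, but numbers do not pair the samples (mean correlation -0.092 over 21 same-number pairs and 0.042 over others). With the column tag as covariate the numbers were 1066, 33 and 0 against steady state and 163 for day 4 against day 1, and thinned counts gave 0 for day 7 against steady state. Libraries with tag k3 or kk only, a setting chosen after seeing the data in which day 1 holds 1 library that is assumed to vary like the others, gave 3368, 1391, 0, 185, 4322 and 2483. Leaving out each library gave 252 to 797, 19 to 226, 0 to 622, 87 to 362, 472 to 2043 and 15 to 1507.

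In the main fit 0 of the 10 genes were called in the first 4 comparisons. There were 8 in day 7 against day 1 and 3 in day 7 against day 4. With k3 or kk libraries only the counts differed in some comparisons. They are not given for the 10, as day 1 then holds 1 library. DESeq2 called 1 at day 4 and 9 at day 7 against steady state, 1 at day 4 against day 1 and 6 at day 7 against day 4. No filter gave 9 at day 7 against steady state and 5 against day 4, and at least 10 counts in every library gave 2 and 1 of those tested at day 7 against days 1 and 4. Only the conditions compared gave 1 at day 4 against day 1. The replicate block gave 5 and 0 at day 7 against days 1 and 4, and the column tag 3 against day 1. Leaving out each library gave 0 to 8 at day 7 against steady state, 0 to 1 at day 4 against day 1, 4 to 9 and 0 to 6 at day 7 against days 1 and 4.

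Of the 45 listed TRA genes, 16 were called at day 7 against day 1 and 0 elsewhere. DESeq2 called 1 and 18 at days 4 and 7 against steady state and 5, 27 and 5 in the other 3 comparisons. No filter gave 12 at day 7 against steady state and 2 against day 4, RLE 1 against day 4. At day 7 against day 1, at least 10 counts in every library gave 2, the replicate block 8, the column tag 4 and thinned counts 10. k3 or kk libraries only gave 16 and 2 at days 1 and 4 against steady state, then 1, 30 and 11. Leaving out each library gave 0 to 1 at day 1 and 0 to 7 at day 7 against steady state, and 4 to 22 and 0 to 2 at day 7 against days 1 and 4. The causes were not tested. Of the 10 genes' fitted log2 fold changes, those at day 7 kept their sign in all alternatives except Tg against steady state (-1.25 to 0.25). Over all 6 comparisons, leaving out a library changed the sign in 19 of 780 values and k3 or kk libraries only in 10 of 60. At day 7, counts of 0 to 3 limit the folds of Ins2, Fabp2, Reg4 and Spt1.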
